A study of Homo sapiens with 6 samples.

Results

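The 39 genes described here encode proteins of blood coagulation and of the complement system. They were taken by symbol from the 20030 genes of the count table, and all 39 were present. Of these, 18 are clotting genes in a wide sense, including anticoagulant, fibrinolytic and protease-control genes, and 21 are complement genes. Serpins and fibrinogen were left out of the list. HepG2 is a cell line from a human liver tumour that makes many plasma proteins. It was infected with lentivirus carrying a control shRNA (sh-ctrl, n = 3 libraries) or shRNA against KIF11 (sh-KIF11, n = 3 libraries). The hairpins were cloned in the pLKO.1 vector. Both groups thus share the virus and the vector and differ in the hairpin. The sample titles do not say whether all 3 sh-KIF11 libraries carry the same hairpin. KIF11 is a kinesin motor of the mitotic spindle. The labels do not say whether the libraries of a group came from separate cultures, so the p-values measure the spread between these libraries.

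Clotting factors circulate as inactive proteases and cofactors that activate each other in steps. Tissue factor and factor VII start the extrinsic arm, the contact factors start the intrinsic arm, and both arms meet at factor X, which with factor V turns prothrombin into thrombin. Complement is a parallel cascade, in which the classical, lectin and alternative arms meet at C3 and the terminal components C5 to C9 form the membrane attack complex. Hepatocytes make most of the soluble proteins of both cascades, whereas tissue factor and the regulators CD46, CD55 and CD59 are anchored in cell membranes.

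Of the 39 genes, 36 passed the filter on low counts, and 31 of these differed between sh-KIF11 and sh-ctrl, 86.1% beside 69.1% of all 12369 tested genes. A total of 28 were lower in sh-KIF11, 77.8% of the 36 beside 34.7% of all tested genes. The 3 that were higher were F3, F5 and F13B, while 34.4% of all tested genes were higher. At least a 2-fold fall was called for 14 genes of the list, including F7, F10, PROZ, F2, A2M, C2, CFB, C8A and C8B, beside 3.52% of all tested genes. Of the 14, C8B, PLG and C6 had at least 10 counts in every sh-ctrl library but not in every sh-KIF11 library. They thus passed the filter through sh-ctrl, and requiring at least 10 counts in every library left them out. Only 1 rise, that of F13B, reached 2-fold, beside 8.13% of all tested genes. The libraries of both groups did not overlap for 31 of the 36 genes, beside 71.2% of all tested genes. Overlap was judged on counts scaled by the TMM method. The raw counts of TFPI, F11, PROC, PROS1, C4A, C5, CFI and CD46 overlapped. The median log2 fold change was -0.63, and that of all tested genes was 0.00 with quartiles of -0.31 and 0.36. Calls rest on the quasi-likelihood test of edgeR, adjusted over all tested genes by the Benjamini-Hochberg method, at a threshold of 0.05, and every adjusted p given for a gene is from this test unless another is named.

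The libraries held between 18167773 and 19583282 counts. A count of 3, the detection limit used here, corresponds to between 0.145 and 0.178 CPM, the unit used here for counts scaled by the TMM method. KIF11 itself had 1976, 2088 and 2039 counts in the control libraries against 1448, 1478 and 1240 after KIF11 knockdown (log2 fold change -0.75, SE 0.0573, adjusted p = 4.22e-15), so the target fell but was far from absent. The TMM factors lay between 0.922 and 0.926 in sh-ctrl and between 1.08 and 1.09 in sh-KIF11. Scaling by library totals alone raised the median log2 fold change of all genes to 0.24, and the fold changes given here are relative to the TMM scale. Of 7 hepatocyte markers 6 fell, including ALB (-1.49) and TF (-2.28), beside 34.7% of all tested genes. The summed level of the 7 went from between 31800 and 33300 CPM to between 14100 and 15200 CPM. In the endothelial list 5 of 7 genes had at most 3 counts in every library, with TEK and CLEC4G at 0, and the summed level was between 1.68 and 2.13 CPM in sh-ctrl and between 3.99 and 6.19 CPM in sh-KIF11. In the macrophage list the same held for 5 of 7 genes, with CD163, CSF1R and C1QA at 0, and the sum went from between 78.0 and 89.1 CPM to between 41.6 and 46.3 CPM. In the stellate and fibroblast list it held for 3 of 7, with DCN at 0, and the sum went from between 93.4 and 97.6 CPM to between 186 and 198 CPM. This sum was almost all ACTA2 (91.9 and 188 CPM on average, log2 fold change 1.03), and PDGFRB, the other tested gene of that list, fell (-1.16, adjusted p = 6.36e-05). The part of the hepatocyte markers' fall in the results on coagulation and complement genes was not tested. In libraries of whole cultures, fewer cells making an RNA and less of it in each cell cannot be told apart.

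Promoters of 33 of the 39 genes were found in RefSeq (GRCh38.p14), each as 250 bases before and 50 after the transcription start. They are shown for 4 genes that fell at least 2-fold in neighbouring positions and that hold the marked word. These are F7, F10 and PROZ on chromosome 13 and C8B beside C8A on chromosome 1. C4BPB, which fell by less (-0.41) beside C4BPA (-0.64), also holds the word and is not shown. The promoters of C8A, C2, CFB and C4BPA, which fell in neighbouring positions too, do not hold it. Capitals mark CAAAGT, or its reverse complement ACTTTG, a short word searched as part of the motif of the liver factor HNF4.
F7, chr13:113105541-113105840, plus strand: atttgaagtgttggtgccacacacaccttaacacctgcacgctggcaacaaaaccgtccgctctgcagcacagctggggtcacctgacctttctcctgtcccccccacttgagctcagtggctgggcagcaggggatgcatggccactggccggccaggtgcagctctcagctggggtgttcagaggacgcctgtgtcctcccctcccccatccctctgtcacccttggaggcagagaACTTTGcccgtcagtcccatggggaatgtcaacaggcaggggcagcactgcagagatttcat
F10, chr13:113122549-113122848, plus strand: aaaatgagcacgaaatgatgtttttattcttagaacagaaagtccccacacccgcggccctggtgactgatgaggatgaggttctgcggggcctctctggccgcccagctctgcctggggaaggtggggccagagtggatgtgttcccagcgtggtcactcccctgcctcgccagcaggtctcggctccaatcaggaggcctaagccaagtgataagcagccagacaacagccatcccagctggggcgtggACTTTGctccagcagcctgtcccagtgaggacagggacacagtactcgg
PROZ, chr13:113158398-113158697, plus strand: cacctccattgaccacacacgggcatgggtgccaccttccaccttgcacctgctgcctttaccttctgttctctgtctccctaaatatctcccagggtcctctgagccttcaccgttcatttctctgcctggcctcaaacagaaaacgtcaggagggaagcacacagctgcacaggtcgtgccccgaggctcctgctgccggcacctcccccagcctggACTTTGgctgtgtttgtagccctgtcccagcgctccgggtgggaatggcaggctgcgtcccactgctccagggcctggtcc
C8B, chr1:56965966-56966265, minus strand: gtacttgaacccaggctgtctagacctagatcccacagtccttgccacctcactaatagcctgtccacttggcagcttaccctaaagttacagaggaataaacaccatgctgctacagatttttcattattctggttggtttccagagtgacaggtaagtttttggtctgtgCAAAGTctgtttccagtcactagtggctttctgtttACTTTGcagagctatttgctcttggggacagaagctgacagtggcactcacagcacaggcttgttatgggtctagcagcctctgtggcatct
The first base of the match lies at -12 in F7, +2 in F10, -31 in PROZ and -78 and -42 in C8B, counted from the start site. On both strands, CAAAGT was in 7 of the 33 promoters (21.2%) and in 12% of 27305 RefSeq promoters of the same length. The 7 with CAAAGT were F7, F9, F10, PROZ, KLKB1, C8B and C4BPB. The C/EBP core TTGCNNAA was in 5 (15.2%, against 10.6% of all promoters), and TATAAA in 3 (9.09%, against 12%). The GC box GGGCGG was in 7 (21.2%, against 44.6%), among them F3, CD46, CD55 and CD59, the 4 genes with membrane-bound products. Among the 23 genes that fell and had a promoter entry, 5 held CAAAGT.

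Levels can be compared between genes only per transcript length, in FPKM. In sh-ctrl, A2M, which encodes the broad protease trap alpha-2-macroglobulin, stood highest at 654 ± 26.9 FPKM (SD, n = 3), rank 72 of all genes. C3, the central complement component, followed at 203 ± 16.3 FPKM, and F2 at 170 ± 9.17 FPKM. TFPI, the inhibitor of the tissue factor complex, had 85.7 ± 3.44 FPKM and CD46 84.1 ± 6.25 FPKM, which lie within each other's spread. The lowest levels with reads in all libraries were KLKB1 at 0.0717 FPKM and C6 at 0.119 FPKM. The list therefore spanned genes that rank among the most abundant of the cell line and genes close to the detection limit.

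**Figure D1:**
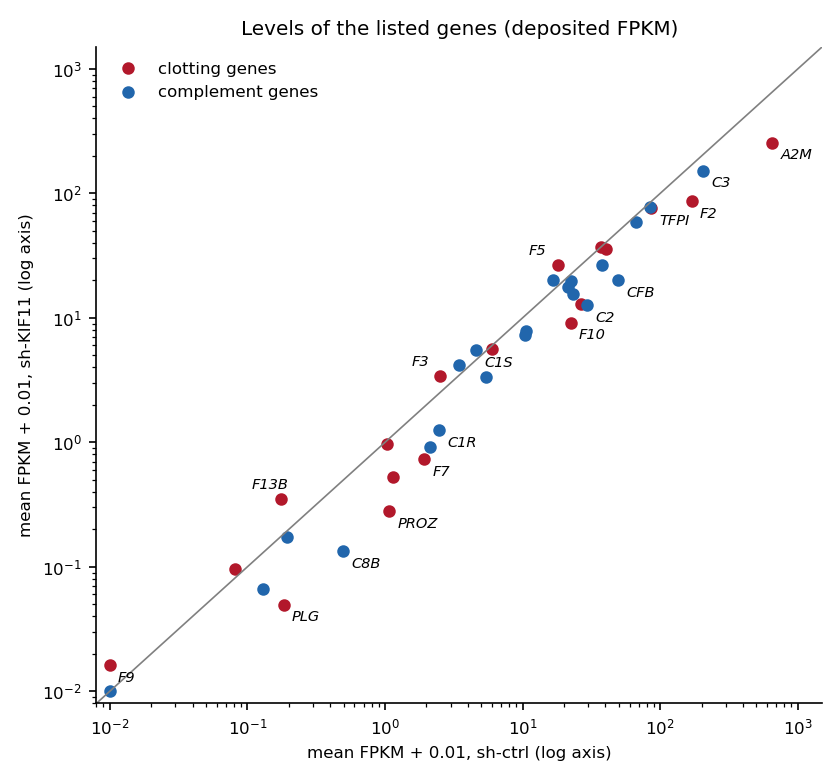
Mean deposited FPKM of the 39 genes in sh-ctrl (x axis) and sh-KIF11 (y axis), n = 3 libraries each, with 0.01 added so that values of 0 can be drawn on log axes; the line marks equal levels. A2M moved from 654 to 256 FPKM and F5 from 18.0 to 26.6 FPKM.

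Summed over the clotting genes, the level was between 1030 and 1110 FPKM in the sh-ctrl libraries and between 516 and 593 FPKM in sh-KIF11. A2M made up between 60.8% and 61.6% of this sum in sh-ctrl and between 43.9% and 48.9% in sh-KIF11. Without A2M the sum went from between 400 and 426 FPKM to between 289 and 303 FPKM. The complement sum went from between 587 and 606 FPKM to between 445 and 457 FPKM, and C3 held between 31.5% and 35.6% of it in sh-ctrl and between 33.4% and 34.0% in sh-KIF11. As shares of all counts, the clotting genes took between 0.706% and 0.754% in sh-ctrl and between 0.349% and 0.411% in sh-KIF11, and the complement genes between 0.333% and 0.354% and between 0.269% and 0.276%. For both lists the sums of the groups did not overlap.

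Of 18 clotting genes 16 were tested, 12 were lower, 3 were higher and 1 (KNG1) did not pass the test. Of 21 complement genes 20 were tested, 16 were lower, none was higher, and C1S, MASP1, CD55 and CD59 did not pass. Over all tested genes 34.7% were lower and 34.4% were higher. At least a 2-fold fall was found for 8 clotting and 6 complement genes, beside 3.52% of all tested genes. These include PLG, C8B and C6, which passed the filter through the sh-ctrl libraries. On the TMM scale the libraries did not overlap for 15 of 16 clotting and 16 of 20 complement genes, beside 71.2% of all tested genes. The median log2 fold change was -0.77 for clotting (range -2.05 to 1.05) and -0.63 for complement (range -2.23 to 0.12). The clotting median sat in a gap between PROC (-0.37) and F2 (-1.17), and it was -0.33 without A2M and VTN. The order of these medians thus depends on the genes listed, and a difference between the cascades was not tested. Both lists held genes that fell at least 2-fold beside genes that changed little.

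**Figure D2:**
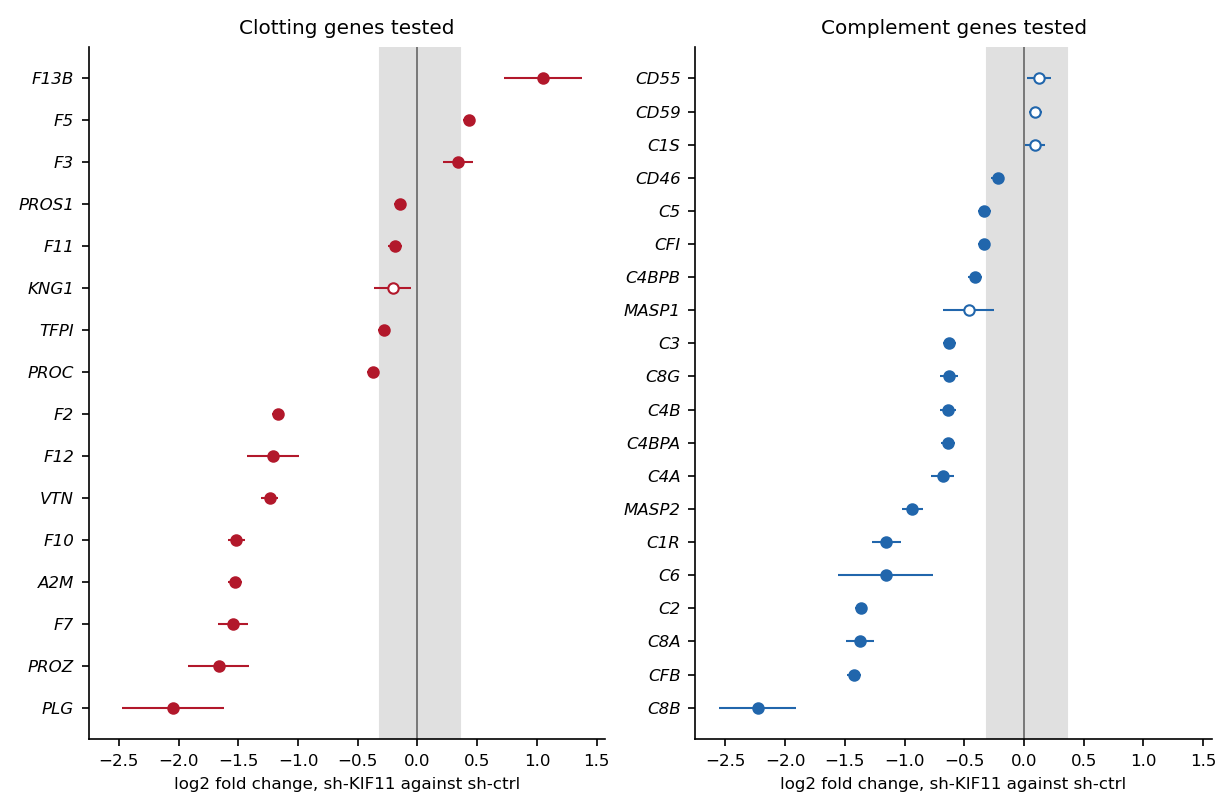
Log2 fold change (x axis, sh-KIF11 against sh-ctrl) of the 16 tested clotting and 20 tested complement genes, with bars of 1 SE; filled points had an adjusted p under 0.05, and the grey band spans the quartiles of all tested genes, -0.31 to 0.36. Most points lie left of 0, with F13B (1.05) and C8B (-2.23) at the ends.

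In the extrinsic pathway, factor VII fell while tissue factor did not. F7, the protease that tissue factor binds, had 266, 298 and 255 counts in the control libraries against 85, 112 and 125 after KIF11 knockdown. Every sh-KIF11 library lay more than 2-fold below the lowest sh-ctrl library. The level went from 15.5 ± 0.872 to 5.33 ± 1.05 CPM, a log2 fold change of -1.54 (SE 0.124, adjusted p = 2.3e-14). F3, which encodes tissue factor, had 128, 130 and 113 counts in the control libraries against 176, 187 and 175 after KIF11 knockdown. It rose by 0.34 on the log2 scale (SE 0.125, adjusted p = 0.0152) with no overlap of the libraries, although DESeq2 gave an adjusted p of 0.0634. TFPI fell slightly (-0.28, adjusted p = 2.64e-06), a call that was lost with library totals alone (-0.05, adjusted p = 0.352).

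The contact and intrinsic pathway held the 2 clotting genes without a test. F12, which starts the contact pathway, had 83, 60 and 77 counts in the control libraries against 35, 34 and 40 after KIF11 knockdown, from 4.18 ± 0.742 to 1.8 ± 0.200 CPM. This was a log2 fold change of -1.21 (SE 0.220, adjusted p = 6.35e-06) without overlap, at low counts. F11, encoding factor XI, had 1169, 1170 and 1126 counts in the control libraries against 1124, 1235 and 1135 after KIF11 knockdown. These raw counts overlapped, whereas the TMM-scaled values did not, and its call (-0.19, adjusted p = 0.00589) turned to 0.05 (adjusted p = 0.508) with library totals alone. The F11 call was also lost with upper-quartile scaling (-0.11, adjusted p = 0.109). In limma fits to FPKM at pseudocounts of 1 and 0.1 the adjusted p was 0.328 and 0.324. KNG1, the gene of high-molecular-weight kininogen, had -0.21 (adjusted p = 0.224), with overlapping libraries. KLKB1, the gene of plasma prekallikrein, had 6, 11 and 6 counts in the control libraries against 8, 9 and 5 after KIF11 knockdown, and F9, that of factor IX, had 1 count in 1 sh-KIF11 library and 0 in the other libraries, so no change was detectable in either at this depth.

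The genes of the common pathway moved in both directions. F10, whose protein cuts prothrombin, had 1106, 1244 and 1114 counts in the control libraries against 475, 470 and 444 after KIF11 knockdown. The level went from 65.7 ± 3.47 to 23.0 ± 0.622 CPM (-1.52, SE 0.0715, adjusted p = 6.34e-22). F2, the prothrombin gene, had 10170, 10441 and 8770 counts in the control libraries against 5221, 5153 and 4629 after KIF11 knockdown. Both genes had all sh-KIF11 libraries below all sh-ctrl libraries, and F2 went from 556 ± 31.9 to 248 ± 12.8 CPM (-1.17, SE 0.0514, adjusted p = 6.03e-23). F5, the cofactor of activated factor X, went the other way, with 4773, 5123 and 4375 counts in the control libraries against 7556, 7603 and 6870 after KIF11 knockdown. It rose by 0.43 on the log2 scale (SE 0.0496, adjusted p = 4.52e-10), from 270 ± 12.5 to 364 ± 14.4 CPM. F13B, the carrier subunit of the fibrin-stabilising factor XIII, had only 11, 15 and 13 counts in the control libraries against 26, 30 and 37 after KIF11 knockdown. Its libraries did not overlap, and it rose by 1.05 (SE 0.326, adjusted p = 0.00441), from 0.739 ± 0.111 to 1.54 ± 0.301 CPM. The mean of 1 CPM over all libraries, set for full values, was reached by F13B only through the sh-KIF11 libraries.

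The 3 anticoagulant genes fell by very different amounts. PROZ, the cofactor for inhibition of activated factor X, had 51, 62 and 59 counts in the control libraries against 18, 22 and 22 after KIF11 knockdown. This was a fall from 3.26 ± 0.351 to 1.02 ± 0.114 CPM (-1.66, SE 0.254, adjusted p = 2.51e-07). PROC, the protein C gene, fell by 0.37 (adjusted p = 5.03e-08), and PROS1, the gene of its cofactor protein S, fell by 0.15 (adjusted p = 0.00867). PROS1 had 37.3 ± 0.343 FPKM in sh-ctrl and 37.0 ± 0.364 in sh-KIF11, and with library totals alone it was at 0.08 (adjusted p = 0.148). The PROS1 call was also lost with upper-quartile scaling (-0.07, adjusted p = 0.212). In limma fits to FPKM at pseudocounts of 1 and 0.1 the adjusted p was 0.816 and 0.818. The vitamin K-dependent genes (F2, F7, F10, PROC, PROS1 and PROZ, with F9 not tested) were grouped after the values were seen. Those tested were all lower, beside 34.7% of all tested genes. Their median was -1.34 and their range from -1.66 to -0.15.

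Fibrinolysis and protease control held the most abundant gene and one of the rarest. A2M had 104380, 112820 and 98657 counts in the control libraries against 47187, 42161 and 36424 after KIF11 knockdown. The highest sh-KIF11 library was below every sh-ctrl library by more than 2-fold, and the level went from 5983 ± 232 to 2078 ± 255 CPM (-1.53, SE 0.0586, adjusted p = 5.18e-25). VTN, the gene of vitronectin, which binds and stabilises the plasminogen activator inhibitor, had 1191, 1221 and 1034 counts in the control libraries against 531, 593 and 551 after KIF11 knockdown. It went from 65.2 ± 3.46 to 27.7 ± 1.11 CPM (-1.24, SE 0.0698, adjusted p = 2.6e-19). PLG, the plasminogen gene, had 23, 26 and 17 counts in the control libraries against 3, 11 and 4 after KIF11 knockdown. The fall of -2.05 (SE 0.429, adjusted p = 5.71e-05) has no overlap between libraries but rests on few counts, and it was -2.78 without sh-KIF11 replicate 2.

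**Figure D3:**
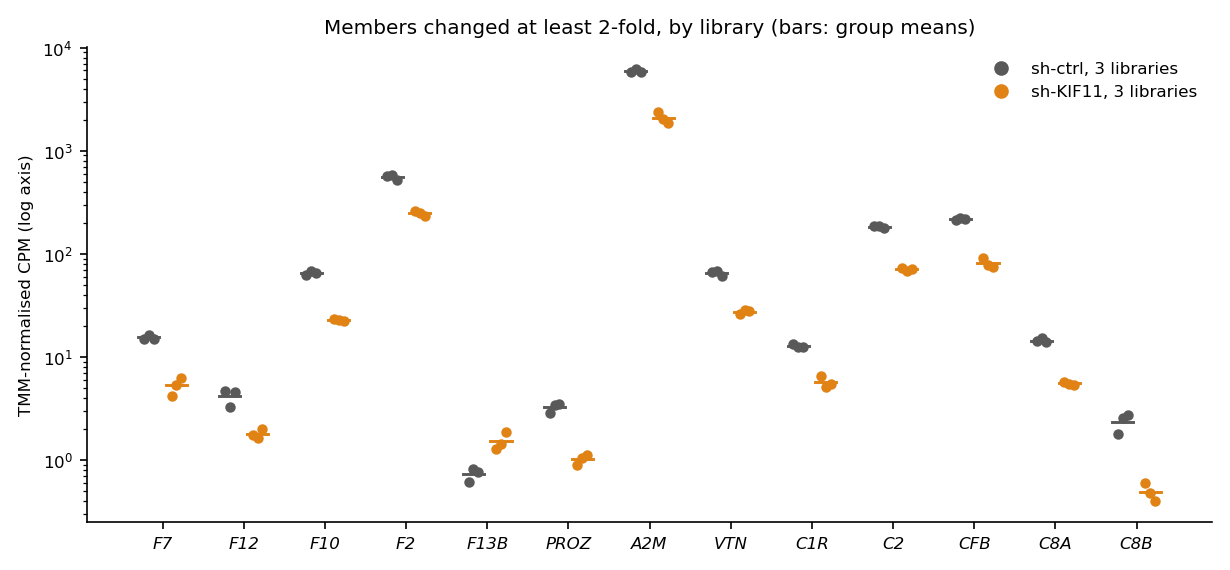
TMM-normalised CPM (log axis) of the 13 genes that averaged 1 CPM or more and changed at least 2-fold without overlap, each point 1 library and each bar a group mean, sh-ctrl in grey and sh-KIF11 in orange (n = 3 each). For F13B the sh-KIF11 points lie above sh-ctrl and for the other 12 genes below it, with A2M at the top (5983 against 2078 CPM). The average is over all libraries. F13B reached 1 CPM only through sh-KIF11 (0.739 CPM in sh-ctrl, 1.54 in sh-KIF11) and C8B only through sh-ctrl (2.36 and 0.496 CPM). PLG missed 1 CPM through its fall (1.25 and 0.295 CPM).

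In the first steps of the classical and lectin pathways, C1R fell, whereas C1S, the gene of its partner protease, did not pass the test. C1R had 238, 226 and 210 counts in the control libraries against 133, 106 and 108 after KIF11 knockdown, from 12.8 ± 0.499 to 5.74 ± 0.788 CPM (-1.15, SE 0.123, adjusted p = 6.49e-11). C1S had 400, 352 and 355 counts in the control libraries against 451, 457 and 445 after KIF11 knockdown (log2 fold change 0.09, SE 0.0831, adjusted p = 0.327). With library totals alone C1S was higher in sh-KIF11 (0.32, adjusted p = 0.000658). It was also called higher in limma fits to FPKM at pseudocounts of 1 (adjusted p = 0.0103) and 0.1 (adjusted p = 0.00969). The difference between C1R and C1S was not tested. C2, the protease of the classical C3 convertase, had 3312, 3335 and 3001 counts in the control libraries against 1461, 1429 and 1397 after KIF11 knockdown. The libraries within each group lay close together, and the level went from 183 ± 4.32 to 70.9 ± 1.89 CPM (-1.37, SE 0.0519, adjusted p = 3.78e-25). The mannose-binding lectin proteases differed in certainty. MASP2 fell (-0.94, SE 0.0881, adjusted p = 1.88e-12), while MASP1 had overlapping libraries, 83, 90 and 47 counts against 71, 45 and 66, and -0.46 (adjusted p = 0.0502). MASP1 passed the threshold without sh-ctrl replicate 3 (-0.68, adjusted p = 0.0048), without sh-KIF11 replicate 1 (-0.60, adjusted p = 0.0254) and without sh-KIF11 replicate 3 (-0.55, adjusted p = 0.0449). It did not pass without sh-ctrl replicate 1 (-0.37, adjusted p = 0.171), without sh-ctrl replicate 2 (-0.31, adjusted p = 0.263) or without sh-KIF11 replicate 2 (-0.27, adjusted p = 0.295), nor by DESeq2 (adjusted p = 0.139).

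C4A and C4B encode the near-identical forms of C4, the partner of C2, and reads shared by both can be assigned to either. C4A had 1453, 1673 and 1153 counts in the control libraries against 1093, 1226 and 737 after KIF11 knockdown, and C4B had 1706, 1308 and 1333 against 1055, 1057 and 1094. The share of C4A in their sum ranged from 40.3% to 56.1% over the libraries and overlapped between groups. Their sum had 3159, 2981 and 2486 counts in the control libraries against 2148, 2283 and 1831 after KIF11 knockdown, and its log2 fold change was -0.66 (SE 0.0601, adjusted p = 7.09e-13), close to that of C4A (-0.68) and C4B (-0.64) alone.

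At the level where the arms meet, C3 and the alternative pathway protease factor B both fell. C3 had 36090, 37321 and 30003 counts in the control libraries against 25941, 25963 and 24832 after KIF11 knockdown, from 1956 ± 156 to 1269 ± 21.1 CPM (-0.62, SE 0.0511, adjusted p = 3.37e-14). CFB had 3776, 4002 and 3671 counts in the control libraries against 1830, 1603 and 1469 after KIF11 knockdown, from 217 ± 5.04 to 81.0 ± 8.93 CPM (-1.42, SE 0.0576, adjusted p = 3.39e-24). Neither gene had overlapping libraries, and the fall of CFB was 2.68-fold and that of C3 1.54-fold.

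All 5 tested genes of the terminal pathway were lower, beside 34.7% of all tested genes. Of these, C8B and C6 passed the filter on low counts through the sh-ctrl libraries. C8A had 253, 275 and 235 counts in the control libraries against 116, 114 and 107 after KIF11 knockdown, from 14.4 ± 0.695 to 5.57 ± 0.186 CPM (-1.37, SE 0.117, adjusted p = 1.05e-13). C8B had 32, 46 and 46 counts in the control libraries against 12, 10 and 8 after KIF11 knockdown, from 2.36 ± 0.495 to 0.496 ± 0.0968 CPM (-2.23, SE 0.325, adjusted p = 9.96e-08). The mean of 1 CPM set for full values was reached by C8B only through the sh-ctrl libraries. C8G, which encodes the third chain of the C8 protein, had 531, 533 and 522 counts in the control libraries against 393, 403 and 381 after KIF11 knockdown, and fell by 0.63 (SE 0.0787, adjusted p = 3.44e-09). The 3 chains of C8 were thus all lower, with levels in sh-ctrl of 2.13, 0.487 and 23.2 FPKM for C8A, C8B and C8G. C5 fell by 0.33 (adjusted p = 4.78e-07), a call lost with library totals alone (-0.10, adjusted p = 0.0754). C6 had 16, 19 and 20 counts in the control libraries against 14, 5 and 9 after KIF11 knockdown (-1.16, adjusted p = 0.0101), and without sh-KIF11 replicate 2 it was no longer called (-0.85, adjusted p = 0.0883), nor by DESeq2 (adjusted p = 0.0532). C9 had 0 counts in all 6 libraries, which allows up to 3 counts in each.

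The soluble regulators of complement fell by less than 2-fold. CFI, the protease that cuts C3b and C4b, had -0.34 (adjusted p = 5.05e-07), and was not called with library totals alone (-0.11, adjusted p = 0.0705). C4BPA and C4BPB, the chains of the C4b-binding protein, fell by 0.64 (adjusted p = 6.08e-13) and 0.41 (adjusted p = 6.32e-08). Among the membrane regulators, CD46 had 5049, 5066 and 5452 counts in the control libraries against 5190, 5303 and 4843 after KIF11 knockdown. Its call (-0.22, adjusted p = 0.000251) went to 0.01 (adjusted p = 0.878) with library totals alone. CD46 was not called in limma fits to FPKM at pseudocounts of 1 (adjusted p = 0.0627) and 0.1 (adjusted p = 0.0613). CD55 had 260, 241 and 254 counts in the control libraries against 267, 360 and 316 after KIF11 knockdown (0.12, adjusted p = 0.286), and was called higher with library totals alone (0.35, adjusted p = 0.00197). Limma fits to FPKM at pseudocounts of 1 and 0.1 also called CD55 higher (adjusted p = 0.0258 and 0.0251). CD59 had 2632, 2723 and 2804 counts against 3176, 3456 and 3364 (0.09, adjusted p = 0.107), and it was called higher without sh-ctrl replicate 3 (0.14, adjusted p = 0.00433), with upper-quartile scaling (0.17, adjusted p = 0.0036) and with library totals alone (0.33, adjusted p = 5.05e-07). CD59 was also called higher with at least 10 counts in every library (0.12, adjusted p = 0.0375) and in both limma fits (adjusted p = 0.00158 and 0.00144). The 4 genes with membrane-bound products (F3, CD46, CD55 and CD59), grouped after their values were seen, had a median of 0.11 and a range from -0.22 to 0.34. The other 32 tested genes had a median of -0.66, and 27 of them were lower, beside 34.7% of all tested genes.

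Several of these genes are neighbours in the genome (positions of GENCODE release 29, GRCh38; neighbours within 50 kb of each other were grouped after the fold changes were known). Each group was set beside the nearest coding genes of the count table that lie wholly outside its span, so that genes overlapping or lying between its members, such as C1RL, EMG1, LPCAT3, CYP4V2 and STK19, were passed over. F7 (chr13:113105788-113120681), F10 (chr13:113122814-113149529) and PROZ (chr13:113158654-113172383), all on the plus strand, fell by 1.54, 1.52 and 1.66 on the log2 scale. The coding genes on either side changed less or the other way, MCF2L at 0.32 (adjusted p = 0.00122) and PCID2 at -0.48 (adjusted p = 2.71e-08). In the complement cluster of chromosome 6, C2 (chr6:31897785-31945672) and CFB (chr6:31945650-31952084) overlap by 23 bases and had -1.37 and -1.42, followed by C4A and C4B with -0.68 and -0.64. Their outer neighbours had -0.22 (EHMT2, adjusted p = 0.000348) and -0.18 (CYP21A2, adjusted p = 0.591). C8A (chr1:56854806-56918221) and C8B (chr1:56929210-56966140), which lie tail to tail, had -1.37 and -2.23, and their neighbour FYB2 0.02 (adjusted p = 0.945). C1S (chr12:6988259-7071032) and C1R (chr12:7080199-7092607), also tail to tail, did not move together, with 0.09 and -1.15. Their neighbours were PHB2 at -0.58 (adjusted p = 5.59e-14) and RBP5 at -0.15 (adjusted p = 0.228). C4BPB and C4BPA on chromosome 1 had -0.41 and -0.64 between PFKFB2 at 0.33 (adjusted p = 0.000604) and CD55 at 0.12 (adjusted p = 0.286). CD55 is itself a gene of the list and lies 176403 bases away. In the group of KLKB1 and F11, F11 had -0.19, and KLKB1 and both neighbours were not tested. The members of 3 of the 6 groups thus all fell by more than both of these coding neighbours (F7, F10 and PROZ; C2, CFB, C4A and C4B; C4BPB and C4BPA), a description of the fold changes with no test of the differences.

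**Figure D4:**
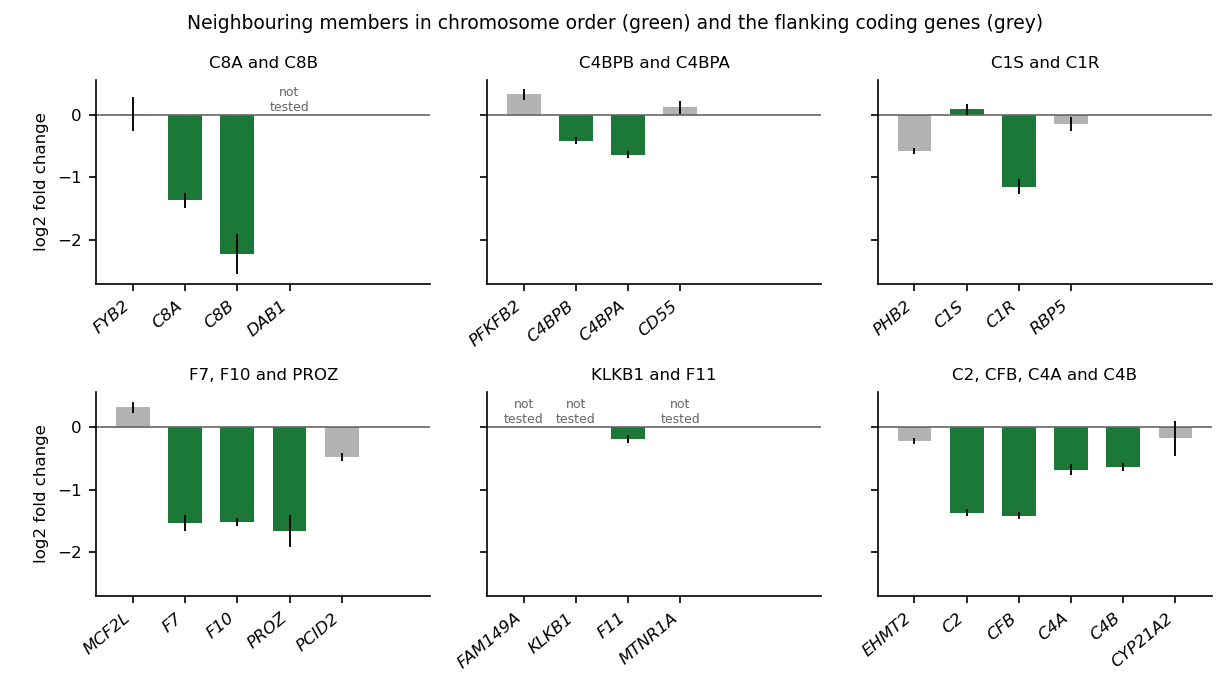
Log2 fold change (y axis, sh-KIF11 against sh-ctrl, bars of 1 SE) of neighbouring coagulation and complement genes in green and of the nearest coding gene of the table wholly outside the group on either side in grey, in chromosome order and not to scale. F7, F10 and PROZ stand at -1.54, -1.52 and -1.66 between MCF2L at 0.32 and PCID2 at -0.48.

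Other genes of both cascades were taken from lists that are not part of the 39. Of 18 further clotting genes 11 were tested, and 6 were higher and 1 lower, beside 34.4% and 34.7% of all tested genes, with a median log2 fold change of 0.65. The largest rise was that of F2RL1, a protease-activated receptor of the cell surface, with 165, 170 and 179 counts in the control libraries against 1069, 1254 and 1227 after KIF11 knockdown (2.59, SE 0.0874, adjusted p = 5.16e-27). The other genes that rose, named after their values were seen, were PLAU (2.34), the urokinase plasminogen activator, PROCR (1.96), the protein C receptor, F8 (1.39), VWF (1.01) and F2R (0.52), the thrombin receptor. PROCR had only 4, 18 and 6 counts in sh-ctrl against 44, 49 and 33 in sh-KIF11, and F8 had 6, 3 and 8 against 18, 21 and 13. At these counts near the detection limit their fold changes are imprecise, and both passed the filter through the sh-KIF11 libraries. Some of these genes are known from endothelial cells. Of the endothelial markers, LYVE1 had 3, 2 and 3 counts in the control libraries against 55, 74 and 78 after KIF11 knockdown, PECAM1 had 26, 35 and 32 counts in the control libraries against 23, 34 and 44 after KIF11 knockdown, and the other listed markers CDH5, KDR, TEK, STAB2 and CLEC4G had at most 3 counts in every library. CPB2, a carboxypeptidase that slows fibrinolysis and is made in the liver, was the one that fell (-0.90, SE 0.0714, adjusted p = 1.21e-14). Of 32 further complement genes only 7 were tested. CLU, the gene of clusterin, a fluid-phase inhibitor of the terminal complex, fell from 672 ± 33.7 to 233 ± 15.8 CPM (-1.53, SE 0.0524, adjusted p = 8.63e-27). CFD (-0.86), C1QBP (-0.53) and COLEC11 (-0.52) were also lower, and CSMD1 was called higher (0.49, adjusted p = 0.0443). The CSMD1 libraries overlapped, with 58, 40 and 44 counts in sh-ctrl against 56, 103 and 70 in sh-KIF11. Of the 7 tested genes 4 were lower and 1 was higher, beside 34.7% and 34.4% of all tested genes.

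Of 6 genes for carboxylation, cleavage and secretion of clotting factors, 5 were lower and 1 higher, beside 34.7% and 34.4% of all tested genes. VKORC1, which recycles vitamin K, went from 145 ± 1.76 to 68.9 ± 2.81 CPM (-1.07, SE 0.0528, adjusted p = 2.98e-21), and GGCX, the carboxylase that uses it, had -0.56 (adjusted p = 1.32e-11). FURIN, a protease that trims proproteins in the secretory pathway, rose (0.63, adjusted p = 4.43e-13). Of 8 liver transcription factors 6 were lower, beside 34.7% of all tested genes. FOXA3 fell most (-0.93, adjusted p = 7.25e-15), and HNF4A, whose motif word was searched above, had -0.47 (SE 0.0488, adjusted p = 3.43e-11). PROX1 was higher (0.17, adjusted p = 0.00392). The median log2 fold change of the 8 regulators was -0.48, beside -0.63 for the 36 coagulation and complement genes, and the difference was not tested.

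**Figure D5:**
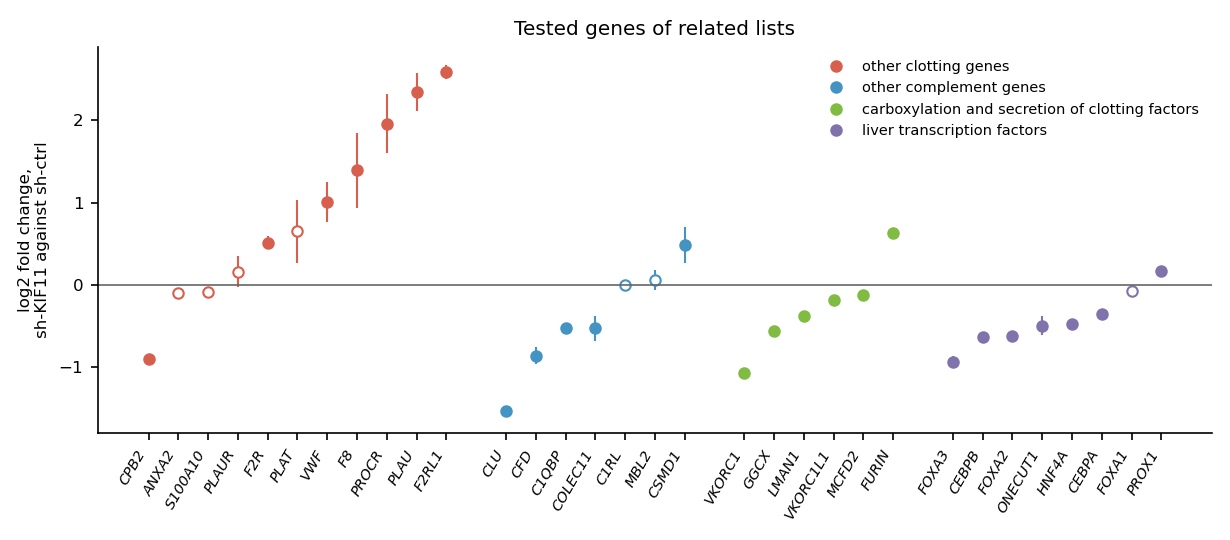
Log2 fold change (y axis, sh-KIF11 against sh-ctrl, bars of 1 SE) of the tested genes of 4 related lists, each sorted by its value; filled points had an adjusted p under 0.05. Further clotting genes reach 2.59 (F2RL1). By contrast, 4 of 7 further complement genes and 6 of 8 liver transcription factors were lower, beside 34.7% of all tested genes.

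Exact permutation tests on CPM gave p = 0.1 for each of the 13 genes with full values and for KIF11, the smallest two-sided value that 3 against 3 libraries allow. On the log2(FPKM + 1) scale the fold changes of genes of low level shrank, for example to -0.40 for C8B, -0.70 for PROZ, -0.76 for F7, -0.71 for C8A and 0.20 for F13B, since the added 1 is large beside their FPKM. Where genes overlap on opposite strands, as A2M does with A2M-AS1, F12 with GRK6 and F11 with F11-AS1, reads can be counted for the partner if strand was not used, and the counting setting is not given in the sources used here.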

How the data were processed

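Poly(A) RNA of HepG2 cells was sequenced as read pairs in 6 libraries, 3 sh-ctrl and 3 sh-KIF11, and grouped by the labels. Columns named only shRNA were taken as sh-KIF11, since the labels name no other shRNA. The authors deposited raw counts per gene and, for the same genes, FPKM values that the authors had scaled for length and library size. The submitters' processing notes name bcl2fastq 1.8.4, Trimmomatic, HISAT2 2.1.0, HTSeq 0.9.1, Cufflinks 2.2.1, DESeq and GRCh38 (hg38), and the annotation release is not given in the sources used here. The library kit was stranded.

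The 39 genes and the lists were chosen with earlier results of these data known. Counts were tested in R 4.3.3 with edgeR 4.0.16 (filterByExpr, which kept 12369 of 20030 genes, TMM, quasi-likelihood test with the group as only term, two-sided, Benjamini-Hochberg threshold 0.05). Limma 3.58.1 on log2 FPKM and DESeq2 1.42.0 served as alternatives, with other scalings, other filters and each library left out in turn. On simulated data for this comparison, 12329 genes were tested and 95.5% of 198 genes changed by 1 on the log2 scale were called, with 11 other genes. The simulation changed only 200 genes, with a common dispersion and no shift of scale between groups. It therefore cannot show how calls depend on scaling where 69.1% of genes are called, as in these data. Full values are given for genes with an adjusted p under 0.05, at least a 2-fold change, a mean of at least 1 CPM and libraries that do not overlap, and other genes are given by role. Of other lists, the largest rise and fall are named. Summing C4A and C4B, the motifs, the neighbour groups and the vitamin K-dependent and membrane-bound groups were chosen after values were seen. Of several RefSeq promoters of a gene, the first was used. C3, C4A, C4B, C1S, C8G and A2M were not matched. Some genes and motifs of the lists are not reported here.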

Additional observations from a re-analysis of the deposited data

How the results depend on the processing

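With other settings, the count of genes of the list called changed stayed within 1.5 times of 31, and the count called lower within 1.5 times of 28. The 3 genes called higher became 6 when library totals alone set the scale, and in limma fits to FPKM at either pseudocount. Complement genes called higher went from 0 to 3 in those fits, and to 1 with upper-quartile scaling, with at least 10 counts in every library and without sh-ctrl replicate 3. The clotting median of -0.77 became -0.69 with upper-quartile scaling, -0.54 with library totals alone, -0.34 with no filter, -0.35 with at least 10 counts, -0.33 with DESeq2, -0.18 and -0.57 with limma at pseudocounts of 1 and 0.1, and -0.33 without A2M and VTN. With no filter and with DESeq2 the clotting median also took in KLKB1 and F9, and with at least 10 counts it left out PLG. These 3 medians therefore rest on other sets of genes. For example, F2 kept -1.17 with DESeq2. The complement median of -0.63 became -0.55 with upper-quartile scaling, -0.40 with library totals alone, and -0.40 and -0.47 with limma. Leaving out 1 library each gave 30 to 33 genes called, 3 to 4 higher and 27 to 29 lower, 0 to 1 complement genes higher, medians of -0.79 to -0.73 for clotting and medians of -0.67 to -0.61 for complement. With library totals alone KNG1 (0.02), F11 (0.05), PROS1 (0.08) and CD46 (0.01) changed sign. Over all genes, 6621 were higher and 2373 lower with library totals alone, 5014 and 3563 with upper-quartile scaling, and 5635 and 2596 with limma on log2(FPKM + 1), against 4254 and 4294. Same-numbered libraries did not deviate together (correlations 0.03, -0.018 and -0.003), so the numbers were not taken as pairs. With the replicate number as a block, 32 genes of the list were called, 29 lower, the added call being MASP1 (adjusted p = 0.0371). At this depth, KLKB1, F9 and C9 could not be compared.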
